A study of Mus musculus with 20 samples.

Results

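Of 101352 accessible regions in C2C12 cells, 7543 had a peak at D0 in wild-type cells, kept one at D5 under methionine restriction and had none at D5 when methionine was not restricted. These MR-retained regions made up 7.44% of all regions and 19.8% of the 38136 regions called in both wild-type D0 libraries. They were chosen by peak calls alone: a region had to be overlapped, by at least 1 bp, by a peak in both wild-type D0 lists and both wild-type D5 MR lists, and in neither wild-type D5 CTL list. The contrast between media in wild-type cells at D5 and the opening at D0 are therefore the choice itself, and are given as a description without a test. The other 14 libraries, from wild-type cells at D1 and from Setd2 knockout cells at D0, D1 and D5, took no part in the choice.

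The libraries came from C2C12, a mouse myoblast line that fuses into muscle cells when it is induced to differentiate. Wild-type cells (WT) and Setd2 knockout cells (KO) were each profiled at 3 times. The D0 group is a single one per genotype, while the D1 and D5 groups are divided into control medium (CTL) and methionine restriction (MR). This gives 10 groups of 2 libraries. The WT libraries of a group are replicates 1 and 2, and the KO libraries are 2 lines, line 1 and line 2, with 1 library of each line per condition. The labels do not say whether a KO line is 1 clone, how the gene was disrupted, or whether the WT replicates were separate cultures. All groups share the cell line, and the D0 groups carry no medium label.

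ATAC-seq uses a transposase to insert sequencing adapters into DNA that is not covered by nucleosomes, so a peak marks an accessible stretch such as a promoter or an enhancer. When myoblasts leave the cell cycle and differentiate, promoters of some proliferation genes and many distal enhancers of the myoblast state can lose accessibility, while elements of muscle genes gain it. Methionine is the precursor of S-adenosylmethionine, the methyl donor of histone methyltransferases, and Setd2 is the enzyme that places trimethylation on lysine 36 of histone H3.

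Promoters held a minority of the MR-retained regions, but they include genes whose roles are well known, and the deposited coordinates can be tied to reference sequence there. The windows below run from 250 bases before to 50 bases after a transcription start and come from RefSeq, assembly GRCm38.p6. Each is overlapped by an MR-retained region and is written 5′ to 3′ on the gene's strand. They are shown because Mki67, Mcm2 and Top2a are cell cycle genes, Asns is an amino acid response gene, and Mmp14 and Tnc are extracellular matrix genes. Capitals mark matches, on either strand, to the motifs listed after the sequences.
Mki67 (chr7:135716330-135716629, minus strand): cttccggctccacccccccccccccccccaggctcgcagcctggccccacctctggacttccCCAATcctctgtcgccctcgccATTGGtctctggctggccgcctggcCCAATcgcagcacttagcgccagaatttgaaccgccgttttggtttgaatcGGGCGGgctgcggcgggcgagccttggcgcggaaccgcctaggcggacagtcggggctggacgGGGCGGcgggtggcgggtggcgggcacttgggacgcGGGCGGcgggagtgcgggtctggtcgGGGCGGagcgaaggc
Mcm2 (chr6:88898731-88899030, minus strand): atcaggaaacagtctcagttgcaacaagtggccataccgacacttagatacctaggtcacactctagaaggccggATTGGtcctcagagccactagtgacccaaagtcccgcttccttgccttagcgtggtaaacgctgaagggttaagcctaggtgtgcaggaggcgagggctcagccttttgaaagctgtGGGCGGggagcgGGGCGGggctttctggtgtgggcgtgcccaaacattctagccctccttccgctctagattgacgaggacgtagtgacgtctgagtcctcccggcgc
Top2a (chr11:99024140-99024439, minus strand): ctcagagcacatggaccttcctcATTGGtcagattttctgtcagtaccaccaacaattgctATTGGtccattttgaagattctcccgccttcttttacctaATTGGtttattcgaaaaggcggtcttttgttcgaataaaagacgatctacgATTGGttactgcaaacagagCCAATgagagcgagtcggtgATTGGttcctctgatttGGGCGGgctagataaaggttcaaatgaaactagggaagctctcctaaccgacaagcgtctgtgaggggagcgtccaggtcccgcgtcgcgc
Asns (chr6:7693160-7693459, minus strand): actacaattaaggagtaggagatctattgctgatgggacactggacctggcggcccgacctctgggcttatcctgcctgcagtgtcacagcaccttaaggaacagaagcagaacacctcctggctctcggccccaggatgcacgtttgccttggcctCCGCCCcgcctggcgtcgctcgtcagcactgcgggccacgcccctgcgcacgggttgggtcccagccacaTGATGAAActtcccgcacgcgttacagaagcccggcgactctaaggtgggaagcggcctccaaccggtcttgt
Mmp14 (chr14:54431348-54431647, plus strand): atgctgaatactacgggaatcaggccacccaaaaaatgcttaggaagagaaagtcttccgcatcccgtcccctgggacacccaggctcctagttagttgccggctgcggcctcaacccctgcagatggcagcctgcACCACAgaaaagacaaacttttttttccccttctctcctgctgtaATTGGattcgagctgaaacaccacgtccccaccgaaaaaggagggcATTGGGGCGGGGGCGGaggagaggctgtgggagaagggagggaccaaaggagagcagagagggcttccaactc
Tnc (chr4:64046887-64047186, minus strand): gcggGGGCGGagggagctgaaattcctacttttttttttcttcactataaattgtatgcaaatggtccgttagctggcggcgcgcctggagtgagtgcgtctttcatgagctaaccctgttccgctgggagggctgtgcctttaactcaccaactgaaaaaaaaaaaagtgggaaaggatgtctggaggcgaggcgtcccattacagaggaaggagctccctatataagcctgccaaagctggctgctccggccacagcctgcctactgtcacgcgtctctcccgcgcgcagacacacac

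The motifs searched in capitals were the CCAAT box (CCAAT), the GC box (GGGCGG), AP-1 (TGANTCA), the E-boxes CAGCTG and CACCTG, Tead (GGAATG), Runx (TGTGGT), CRE (TGACGTCA), E2F (TTTCCCGC and TTTGGCGC) and Ets (CCGGAAGT). An amino acid response element, TGATGNAA, was added after the Asns region had been seen. GC box matches can overlap one another. A match is a description of the letters and not a mapped binding site. Top2a carried 6 CCAAT boxes and 1 GC box, Mki67 carried 3 and 4, and Mcm2 carried 1 and 2. The Asns window held 1 match to TGATGNAA, the kind of element bound by Atf4 with a C/EBP partner.

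MR-retained regions overlapped 1019 such promoter windows of 921 genes. The Ets motif was in 11.4% of them, against 9.12% of the 7180 windows overlapped by regions kept in both media, 2.8% of the 429 windows overlapped by regions closed in both media and 3.91% of all 32619 windows. The GC box was in 56.4%, against 72.3%, 58.7% and 35.9% in the same order. The CCAAT box was in 35.4%, against 42.6%, 32.6% and 37.6%. CRE was in 4.51%, against 3.58%, 3.03% and 1.8%, in the same order. The E2F motif TTTCCCGC was in 3.24%, against 2.16%, 2.1% and 1.08%, and the other E2F motif, TTTGGCGC, in 0.785%, against 1.31%, 0% and 0.518%. AP-1 was in 7.95%, against 4.57%, 10.3% and 7.85%, and TGATGNAA in 3.53%, against 1.67%, 2.8% and 3.87%. The median GC content was 58.0%, against 63.3%, 60.3% and 53.0%, and its part in these shares was not tested.

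The cells carried accessible gene ends of the muscle lineage. At D0 in WT, Myod1, Des, Cdh15, Itga7 and Ncam1 were called at a gene end (1 kb or less away) in both libraries, whereas Myf5, Pax7 and Pax3 had none in any of the 20 libraries. Of the markers of differentiated muscle cells, Myog had a call in 8 libraries, every WT library at D1 and D5 and no KO library. Acta1 had a call in 9, the same WT libraries and KO line 2 in D1 CTL, and Ckm in 5, all WT. Myh3 was called only in the 2 WT D5 MR libraries, and Mymk in 14, both WT D0 libraries among them. Ptprc, Pecam1, Epcam, Sp7 and Fabp4, markers of blood, endothelium, epithelium, osteoblasts and adipocytes, had none in any library, while Runx2 had one in 12 and Pparg in 17 of 20. The lists differed in length and strength. WT D5 CTL lists held 22465 and 20847 peaks with a largest −log10 q-value of 81.4 to 83.0, and WT D5 MR lists held 39538 and 39263 peaks with a largest value of 136 to 142. The background coverage solved from the lists, a proxy for depth, was 5.29 to 5.88 fragments per position in WT D5 CTL and 5.17 to 5.45 in WT D5 MR. KO line 1 at D5 gave only 644 peaks in CTL and 1881 in MR, at a background coverage of 0.128 and 0.101, so its D5 values carry almost no information.

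The length of the lists bears on which regions qualify. Among the 38136 regions called in both WT D0 lists, 15968 (41.9%) were called in all 4 WT D5 lists (kept in both media), 7207 (18.9%) in none of the 4 (closed in both media), and 103 (0.27%) in both CTL lists and no MR list, the mirror image of the rule. When each list was cut to its 20000 strongest peaks, 889 regions met the rule and 475 met its mirror image. Of those 889 regions, 750 were among the 7543. Peak fold enrichment and −log10 q-value are the authors' values and are used here only to rank peaks within their own list.

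MR-retained regions were near or below the middle of their lists in strength. In the 4 lists that had to hold them, their median within-list percentile of −log10 q (100 is the strongest peak of the list) was 43.6 and 51.7 at D0 and 37.7 and 37.0 at D5 in MR. Regions kept in both media had 77.3, 81.3, 77.7 and 77.8 in the same lists, and regions closed in both media had 28.5 and 33.9 at D0. When the WT D0 regions were divided into 5 equal bins by the mean of their 2 D0 percentiles, MR-retained regions made up 22.5% of the weakest bin, then 28.5%, 26.0% and 17.6%, and 4.3% of the strongest bin. The weakest of a region's 4 required peaks had a median −log10 q of 3.45 (range 1.09 to 23.4), and 1103 regions (14.6%) had such a peak under 2. Just outside the rule lay 3612 regions with a peak in 1 of the 2 WT D5 CTL lists, at a median −log10 q of 2.93 (range 1.09 to 11.7), 2837 with a peak in 1 of the 2 MR lists and 1711 with a peak in 1 of the 2 D0 lists.

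**Figure D1:**
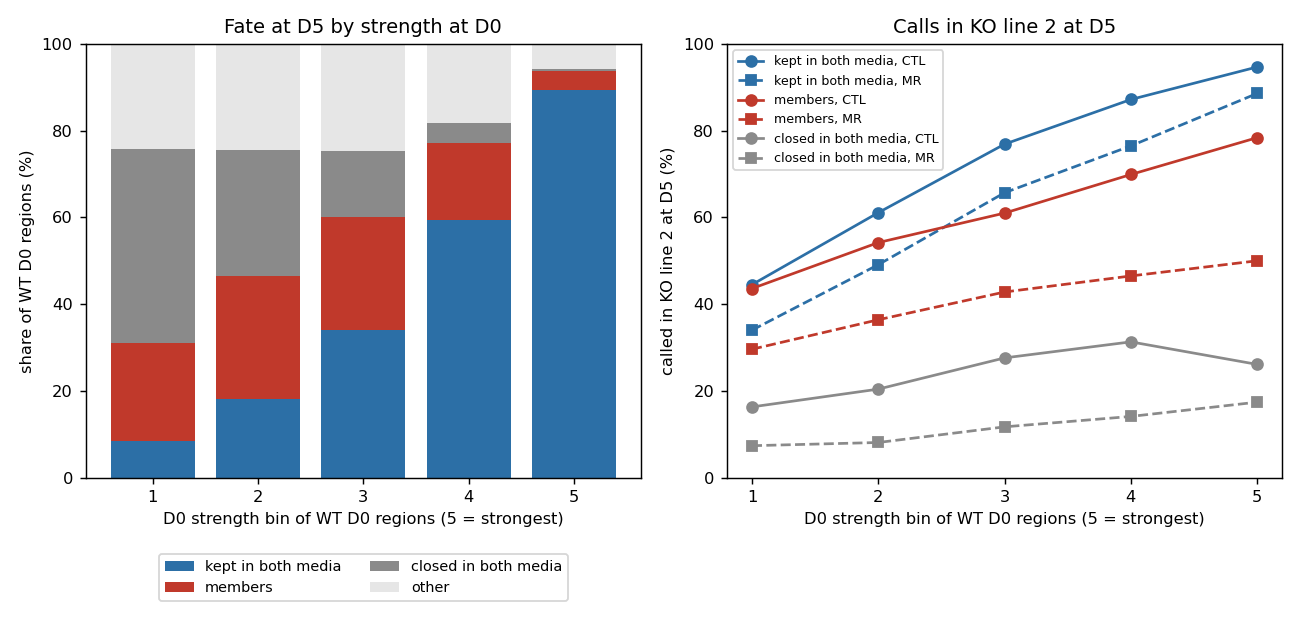
Left, the share in percent of the WT D0 regions in each of 5 bins of D0 peak strength that were kept in both media, MR-retained (members), closed in both media or other. Right, the percent of each class called in KO line 2 at D5 in CTL (circles, solid) and MR (squares, dashed), from 43.6% of members in the weakest bin to 78.4% in the strongest in CTL, with lower shares in MR in every bin.

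Most MR-retained regions lay away from gene ends, as did most of all regions. Within 1 kb of an end of a protein-coding gene lay 1192 (15.8%), a further 3382 (44.8%) overlapped a gene elsewhere, and 2969 (39.4%) lay between genes. These shares were near the 15.8%, 45.4% and 38.8% of all 101352 regions. All WT D0 regions had 25.8%, 41.8% and 32.5%. Regions kept in both media had 39.6% at gene ends, 35.9% elsewhere in genes and 24.5% between genes, and regions closed in both media had 9.99%, 48.6% and 41.4%. The median distance to the nearest gene end was 14662 bp for MR-retained regions, against 3868 bp and 18663 bp for the other classes. It was 15094 bp over all regions. More than 100 kb away were 892 MR-retained regions (11.8%), against 13.2% of all regions. Their median length was 281 bp (range 79 to 2877), against 483 and 181 bp. Strength moved with position: 18.1% of MR-retained regions in the weakest bin of D0 strength were at gene ends and 6.1% in the strongest. On the autosomes 17.3% to 23.1% of WT D0 regions were MR-retained, and on chromosome X 148 of 559 (26.5%).

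**Figure D2:**
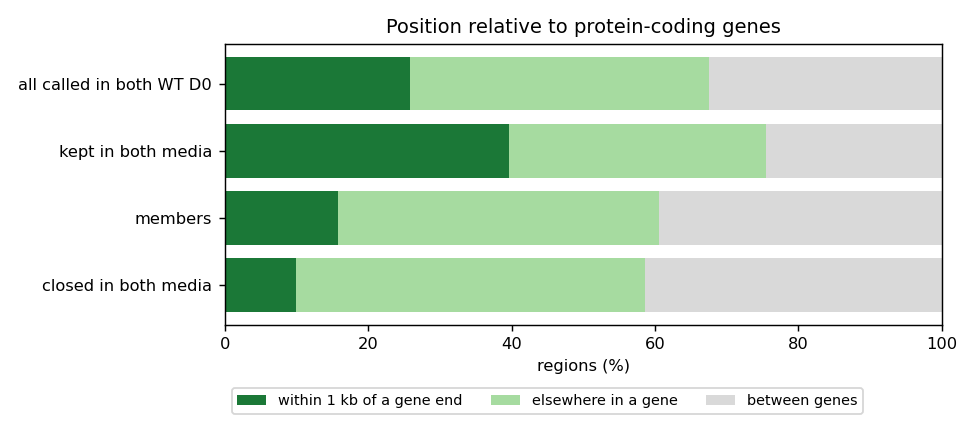
Percent of regions within 1 kb of a protein-coding gene end, elsewhere in a gene, or between genes, for MR-retained regions (members), the 2 comparison classes and all regions called in both WT D0 lists. MR-retained regions had 15.8% at gene ends, between regions closed in both media (9.99%) and kept in both media (39.6%).

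At D1, in libraries outside the rule, most MR-retained regions were called in WT cells in either medium, as were most WT D0 regions. They were called in 95.8% and 87.9% in CTL, replicates 1 and 2, and in 99.4% and 98.2% in MR. All WT D0 regions had 94.6% and 86.8% in CTL and 97.0% and 93.6% in MR. The 2 MR libraries lay above both CTL libraries. All 4 libraries held 6496 of them (86.1%, against 83.8% of all WT D0 regions), and 10 were in none. Both MR lists and neither CTL list held 179 (2.37%), where 2.16% of all WT D0 regions had that pattern, and both CTL lists and neither MR list held 6 (0.0795%), where 0.548% of all WT D0 regions did. The share with the MR-only pattern was thus near its background, and most MR-retained regions still carried a peak in control medium at D1.

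In KO cells at D1 the order of the media in the deposited lists was the opposite. CTL lists held 89.2% of MR-retained regions in line 1 and 80.0% in line 2, and MR lists held 83.6% and 68.5%. MR was below CTL within each line. Both MR lists and neither CTL list held 11 (0.146%, against 0.097% of all WT D0 regions), and both CTL lists and neither MR list held 151 (2.0%, against 3.07%). Over all WT D0 regions the mean difference of MR minus CTL was 4.6 percentage points in WT and −10.5 in KO, and over MR-retained regions it was 6.96 and −8.6. The difference between the genotypes was not tested. List length moved with it: in WT the MR lists held 69881 and 57676 peaks against 60173 and 45545 in CTL, and in KO the MR lists held 48460 and 35201 against 61045 and 46664.

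With lists of equal length the direction in KO turned. Among the 20000 strongest peaks of each list, MR-retained regions were called in 31.5% and 31.2% in WT D1 CTL and in 40.6% and 38.6% in WT D1 MR. In KO D1 they were called in 30.9% (line 1) and 30.5% (line 2) in CTL and in 35.7% and 37.0% in MR. All 4 MR libraries at D1 lay above all 4 CTL libraries, and the difference within replicate number or line ran from 4.87 to 9.11 percentage points. All WT D0 regions were called more often than MR-retained regions in each list, in 47.9% and 48.6% in WT D1 CTL and 50.1% and 49.8% in WT D1 MR. In KO D1 their shares were 47.0% and 46.4% in CTL and 46.4% and 46.0% in MR. Over all WT D0 regions the differences were 2.14 and 1.21 points in WT and −0.574 and −0.38 in KO. Regions kept in both media differed by 3.26 and 0.883 points in WT and −2.89 and −0.344 in KO, and regions closed in both media by −5.36, −2.82, −0.944 and −5.62. This setting was chosen after the data had been seen.

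The D1 values depended on D0 strength. In the 3 weakest bins, among the 20000 strongest peaks of each list, MR-retained regions were called more often in MR in every one of the 4 pairs, by 5.35 to 10.4 points in the weakest bin, 6.36 to 12.4 in the next and 4.89 to 11.7 in the middle one. In the 2 strongest bins the pairs had both signs, from −4.62 to 9.25 and from −11.0 to 0.305. Regions closed in both media were called less often in MR in all 4 pairs of every bin, and regions kept in both media had pairs of both signs in the 4 weakest bins. In WT, 709 MR-retained regions were in the top 20000 of both MR lists and neither CTL list, and 289 had the reverse pattern, beside 1805 and 1422 of all WT D0 regions. These are counts of ranked calls, and no test was made over the regions.

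**Figure D3:**
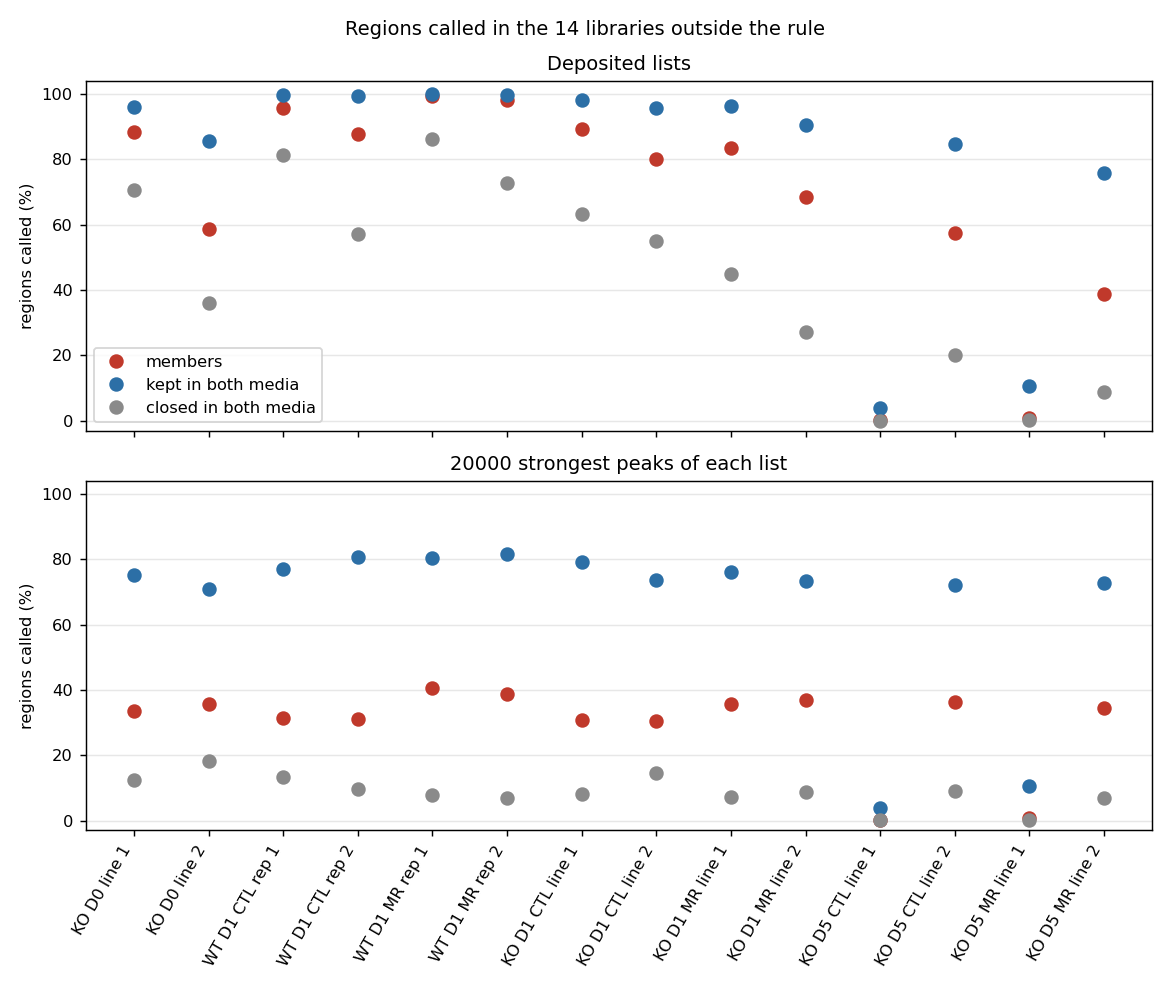
Percent of MR-retained regions (members), regions kept in both media and regions closed in both media that were called in each of the 14 libraries outside the rule, in the deposited lists (top) and among the 20000 strongest peaks of each list (bottom). In the bottom panel the 4 MR libraries at D1 lie at 35.7% to 40.6% of members and the 4 CTL libraries at D1 at 30.5% to 31.5%. KO line 1 at D5 has 644 and 1881 peaks in all.

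The effect of restriction was also tested region by region over the 12 libraries at D1 (both genotypes) and D5 (KO only), with calls permuted within genotype and day. The calls of 725 regions could reach a p of 0.05 or lower. Of these, 0 were called (0%, exact permutation test, adjusted p under 0.05 by the Benjamini-Hochberg method) and 5 had an unadjusted p under 0.05. Only 44 of these 725 were MR-retained, and none had an unadjusted p under 0.05. Of all MR-retained regions, 1100 had a higher mean call in MR and 2528 a lower one. In KO at D1 the CTL lists were longer than the MR lists, and the part of list length in this split was not tested. Among the 20000 strongest peaks, 394 MR-retained regions were testable, 5 had an unadjusted exact permutation p under 0.05 and 0 passed the adjusted threshold. Of all MR-retained regions in that setting, 2763 were higher and 1651 lower in MR. The same counts over all WT D0 regions are not given here, so both splits are a description only.

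KO cells carried most MR-retained regions at D0. They were called in 88.4% in line 1 (63530 peaks) and 58.8% in line 2 (30629 peaks), against 88.1% and 65.4% of all WT D0 regions. All 3 early libraries of line 1 and none of line 2 held 432 MR-retained regions (5.73%), and the reverse held for 57 (0.756%), near the 4.1% and 0.582% of all WT D0 regions. All 4 WT D1 libraries and none of the 8 KO libraries of usual depth held 223 (2.96%), near the 2.57% of all WT D0 regions. Of the 12 libraries outside the rule without KO line 1 at D5, all 12 held 1907 MR-retained regions (25.3%), against 69.8% of regions kept in both media, 2.3% of those closed in both and 39.0% of all WT D0 regions. None was absent from all 12, and 5 were in 1 library.

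**Figure D4:**
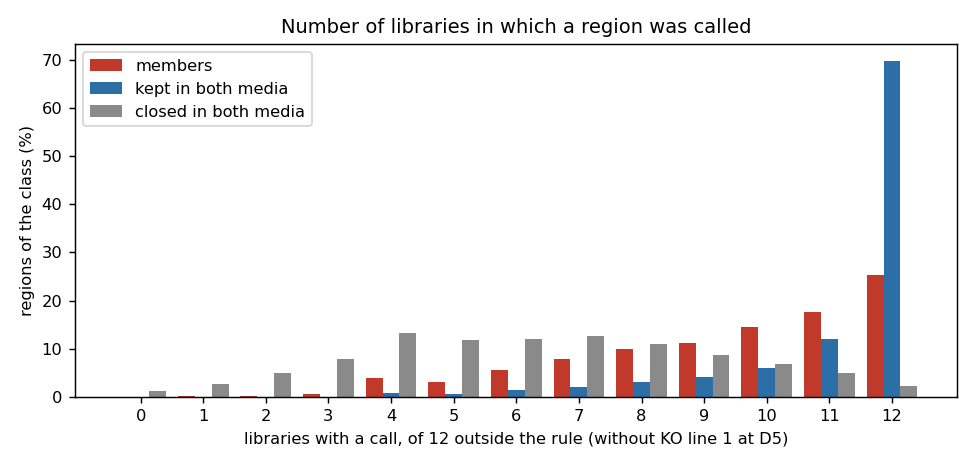
Number of libraries, of the 12 outside the rule without KO line 1 at D5, in which a region was called, as a percent of its class. MR-retained regions (members) reach 25.3% at 12 libraries, regions kept in both media 69.8%, and regions closed in both media have 8.69% to 13.3% at each number from 4 to 9.

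At D5 the only KO line with usable lists was line 2, with 1 library per medium, so no spread could be measured. It held 57.4% of MR-retained regions in CTL (29963 peaks) and 38.9% in MR (22062 peaks), against 60.4% and 47.7% of all WT D0 regions. Both lists held 2663 (35.3%, beside 17153 of the 38136 WT D0 regions), neither held 2942 (39.0%, against 36.9%), the MR list alone held 270 (3.58%) and the CTL list alone 1668 (22.1%). Over all WT D0 regions the MR list alone held 2.67% and the CTL list alone 15.4%. The CTL list alone held more MR-retained regions than the MR list alone on each of 20 chromosomes. The chromosomes are parts of the same 2 lists and not replicates, and the CTL list was the longer one. The pattern that defines these regions in WT at D5, open in MR and not in CTL, was found in KO line 2 for 270 of them, and 2663 carried a peak in both media.

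The 2 KO line 2 lists differed in length and in background coverage, 1.84 in CTL and 1.42 in MR. Among their 20000 strongest peaks the shares were 36.4% in CTL and 34.5% in MR, against 45.3% and 44.4% of all WT D0 regions. CTL alone held 873 MR-retained regions and MR alone 730, beside 3150 and 2773 of all WT D0 regions. Regions kept in both media were called in 84.8% (CTL) and 75.8% (MR), and regions closed in both media in 20.2% and 8.69%. MR-retained regions lay between them in each bin of D0 strength, from 43.6% in CTL in the weakest, beside 44.5% and 16.3%, to 78.4% in the strongest, beside 94.7% and 26.1%. MR-retained regions at gene ends were called in 59.7% (CTL) and 43.4% (MR), those elsewhere in genes in 55.3% and 35.9%, and those between genes in 58.9% and 40.5%. KO line 1 at D5 held 6 and 58 MR-retained regions.

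The gene ends with an MR-retained region were counted over lists of genes. A peak of this class lay within 1 kb of an end of 1345 of 21627 protein-coding genes (6.22%), and 1047 of these had no region kept in both media at an end. Of 317 genes in the 13 lists, 22 (6.94%) had one. Listed genes more often had a WT D0 region at an end (66.6% against 45.3% of all genes), and of the genes with such a region 10.4% of those listed and 13.7% of all had an MR-retained one. Among cell cycle genes 6 of 46 had one, among matrix and adhesion genes 5 of 43 and among Tead, Yap and Ccn genes 3 of 14. Of their genes with a WT D0 region at an end these were 15.4%, 15.6% and 23.1%. The growth factor list had 3 of 41, amino acid response genes 2 of 26, myogenic repressors 1 of 16, muscle structural genes 1 of 35, and the osteoblast, chondrocyte and adipocyte list 1 of 15. Myogenic regulators (0 of 13), AP-1 genes (0 of 10), methionine cycle genes (0 of 20), lysine methylation enzymes (0 of 29) and a list of 10 other mitotic kinesin, centromere and cohesin genes, without the kinesins of the cell cycle list (0 of 10), had none. Among cell cycle genes 29 of 46, and among methionine cycle genes 13 of 20, had a region kept in both media at an end.

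The cell cycle genes were Mki67, the gene of the proliferation marker Ki-67, Mcm2 and Mcm5, subunits of the replicative helicase, Top2a, a topoisomerase that untangles chromosomes, Aurkb, a mitotic kinase, and Kif20a, a mitotic kinesin. Mki67, Mcm2, Top2a and Aurkb had no other region called in both WT D0 lists at their ends. They had no peak at an end in either WT D5 CTL list and had one in both WT D5 MR lists. Mcm5 and Kif20a also had a region kept in both media. The Mki67 region (chromosome 7, 135716217 to 135716711, over the printed promoter) had percentiles of 61.5 and 62.2 at WT D0, 72.8 and 30.2 in WT D1 CTL, 71.0 and 79.9 in WT D1 MR, and 56.4 and 55.0 in WT D5 MR. In KO it had 78.2 (line 1) and 69.9 (line 2) at D0, 41.4 and 76.7 in D1 CTL, 37.5 and no peak in D1 MR, and in line 2 at D5 47.5 in CTL and 19.8 in MR. It was thus called in 11 of the 12 libraries outside the rule, and percentiles of different lists place a peak among its own list and show no change between lists.

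The Mcm2 region (chromosome 6, 88898631 to 88898889) was called in 10 of the 12. Its percentiles were 64.9 and 69.5 at WT D0, 70.7 and 76.0 in WT D1 CTL, 70.0 and 70.7 in WT D1 MR, 61.6 and 52.8 in WT D5 MR, and 19.5 (CTL) and 45.4 (MR) in KO line 2 at D5. The Top2a region (chromosome 11, 99023960 to 99024495) was called in 9, with no peak in KO line 2 at D0 or in MR at D1 or D5 and a percentile of 38.8 in CTL at D5. The Aurkb region (chromosome 11, 69045535 to 69046072) was called in 11, and KO line 2 at D5 had it in CTL (65.2) and not in MR. Of the 6 cell cycle genes, KO line 2 at D5 thus held the region in CTL in 5 (not Kif20a) and in MR in 2, Mki67 and Mcm2, where 57.4% and 38.9% of all MR-retained regions were called.

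Asns, which encodes asparagine synthetase and is induced when amino acids are scarce, had its only D0 region in this class (chromosome 6, 7692920 to 7693367). Its percentiles were 32.6 and 49.1 at WT D0, 62.9 and 43.8 in WT D1 CTL, 77.0 and 64.3 in WT D1 MR, and 29.6 and 26.9 in WT D5 MR. In KO it had 82.2 and 8.36 at D0, 40.4 and 40.0 in D1 CTL and 62.7 and 48.8 in D1 MR, and line 2 at D5 had it in CTL (11.5) and not in MR. The percentile was higher in the MR list of each D1 pair, in lists of different length. Over the MR-retained regions called, the median percentile was also higher in MR in WT, at 67.3 and 59.7 against 55.6 and 46.2 in CTL. In KO that median was lower in MR, at 53.7 and 46.4 against 59.1 and 48.5. The share of MR-retained regions that were higher in MR in every D1 pair is not given here, so this is a description only. Nupr1, a stress-induced transcriptional regulator, had an MR-retained region 803 bp from an end beside a region kept in both media.

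The genes of the matrix and adhesion list were Thbs1 and Thbs2, thrombospondins, Mmp14, a membrane-bound matrix protease, Tnc and Col1a1. Tnc encodes the matrix protein tenascin C and Col1a1 a chain of type I collagen. The Tnc region (chromosome 4, 64046802 to 64047506) was called in all 12 libraries. Its percentiles were 51.1 and 69.5 at WT D0, 72.0 and 70.8 in WT D1 CTL, 80.1 and 73.5 in WT D1 MR, 49.3 and 30.5 in WT D5 MR, and 2.59 (CTL) and 37.3 (MR) in KO line 2 at D5. The Mmp14 region (chromosome 14, 54431394 to 54431647) was also called in all 12, with 47.2 and 46.6 in KO line 2 at D5, and 1 of the 2 WT D5 CTL lists held another peak at an end of this gene. Thbs1 also had a region kept in both media at an end. The Thbs2 region (chromosome 17, 14694000 to 14694347) was in 9, with no peak in any of the 3 early libraries of KO line 1, and in line 2 at D5 it had 65.6 and 64.1. Spp1, which encodes the secreted phosphoprotein osteopontin, had a region over its start (chromosome 5, 104434997 to 104435261) in all 12, with percentiles of 85.9 and 90.7 at WT D0, 54.5 and 57.9 in WT D5 MR, and 50.1 (CTL) and 57.2 (MR) in KO line 2 at D5.

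The 3 regions of the growth factor list were weaker, with a lowest required percentile of 5.43 to 21.8. Tgfb1, a growth factor that inhibits myoblast differentiation, had a region 735 bp from an end (chromosome 7, 25705812 to 25706158) that was called in all 12, at 8.07 and 10.4 in WT D1 CTL and 78.3 and 61.8 in WT D1 MR, and at 70.1 and 42.3 in KO D1 CTL and 80.1 and 53.2 in KO D1 MR. Its percentile was higher in the MR list of each D1 pair, but the D5 lists of KO line 2 went the other way, with 68.1 in CTL and 8.0 in MR. As for Asns, the lists differ in length and the share of MR-retained regions with this D1 order is not given here. Pdgfrb, a receptor for platelet-derived growth factor, was called in 10, at 20.3 in KO line 2 D5 MR and not in CTL. The region of Notch2, a receptor of the Notch pathway, was called in 7 and in neither list of KO line 2 at D5. Id1, which blocks Myod1 by binding its partner proteins, had a region over its gene in all 12, beside a region kept in both media. The region of Ccn2, a matricellular target of Yap and Tead, was called in the 4 WT D1 libraries and in none of the 8 KO libraries of usual depth, and that of Ankrd1, another such target, in 10 and in neither list of KO line 2 at D5. Notch2, Ccn2 and Ankrd1 each also had a region kept in both media at an end, and all 8 KO libraries of usual depth had some peak at their ends. Tnnt3, a fast troponin, had its region 685 bp from an end in 11, and both WT D5 CTL lists held another peak at its ends.

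The 12 strongest MR-retained regions were ranked by the lowest of their 4 required percentiles. They lay more than 10 kb from the nearest end of a protein-coding gene, with 1 exception. The region nearest Ppp1cb, a catalytic subunit of protein phosphatase 1, lay 41611 bp from the gene (chromosome 5, 32416911 to 32417237). Its percentiles were 89.4 and 88.7 at WT D0, 97.5 and 93.1 in WT D1 CTL, 95.7 and 94.8 in WT D1 MR and 92.1 and 90.4 in WT D5 MR, and KO line 2 at D5 had 93.1 in CTL and 84.4 in MR. It had a percentile of at least 69.3 in every list that held it and was absent from the WT D5 CTL and KO line 1 D5 lists. The region 11181 bp from Kdr, a receptor for vascular endothelial growth factor (chromosome 5, 75990253 to 75990588), had 91.8 and 92.6 at WT D0, 68.9 and 39.9 in WT D1 CTL, 96.4 and 97.4 in WT D1 MR and 84.5 and 88.7 in WT D5 MR. In KO it had 98.5 and 97.0 at D0, 87.4 and 89.2 in D1 CTL, 89.3 and 96.6 in D1 MR, and in line 2 at D5 98.2 in CTL and 88.5 in MR. Its percentile in the 2 WT D1 CTL lists was lower than in any other list that held it.

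The others of the 12 lay nearest LOC115489489, Pax8, Nfe2l2, Rbfox2, Paqr8, Hmga2, Baiap2l1, 3110040M04Rik, Chst14 and Lamc3. Paqr8 was the exception, at 5870 bp. Nfe2l2 encodes the oxidative stress regulator Nrf2, Hmga2 an architectural chromatin protein, Rbfox2 a splicing regulator and Lamc3 a laminin chain. The Nfe2l2 region lay inside the gene (chromosome 2, 75689023 to 75689309) and was called in all 12 libraries, at 78.1 and 74.3 in WT D1 CTL, 95.7 and 92.3 in WT D1 MR, and 64.3 (CTL) and 62.3 (MR) in KO line 2 at D5. The Hmga2 region, 151531 bp from the gene (chromosome 10, 120628000 to 120628483), was also in all 12. Among RefSeq transcription starts of any gene, the nearest to the Hmga2 region was that of 4930471E19Rik, 7624 bp away. The Pax8 region overlapped the start of Gm13415. Of the 12 strongest, 9 were called in all 12 libraries, Pax8 and Baiap2l1 in 11 and Rbfox2 in 9. Pax8, Baiap2l1 and Bmp1, which encodes the protease that trims procollagen, were the 3 strongest called in KO line 2 at D5 in CTL and not in MR.

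No MR-retained region was called in all MR lists and no CTL list at D1 in both genotypes and in KO line 2 at D5. Leaving out the KO D1 lists, 8 were called in MR and not in CTL both in WT at D1 and in KO line 2 at D5, and 1 had the reverse pattern. Singly, the MR-only pattern was held by 2.37% of MR-retained regions in WT at D1 and 3.58% in KO line 2 at D5. Over all WT D0 regions these were 2.16% and 2.67%. The share of all WT D0 regions with both patterns is not given here, so the 8 are a description only. They lay nearest Ccdc83, Bgn, Otud7a, Zfp995, Abt1, Smad7, Zcchc10 and Eya4. Bgn encodes the matrix proteoglycan biglycan, Smad7 an inhibitor of TGF-beta signalling and Eya4 a transcriptional coactivator. All 8 were weak, with a lowest required percentile of 23.9 at most. The Bgn region, 6635 bp from the gene (chromosome X, 73476708 to 73476966), had 18.8 and 11.7 at WT D0, 9.66 and 5.19 in WT D1 MR, 25.2 and 21.0 in WT D5 MR and 29.8 in KO line 2 D5 MR, but it was called in all 4 KO D1 lists, at 9.49 and 57.1 in CTL and 27.1 and 66.7 in MR.

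**Figure D5:**
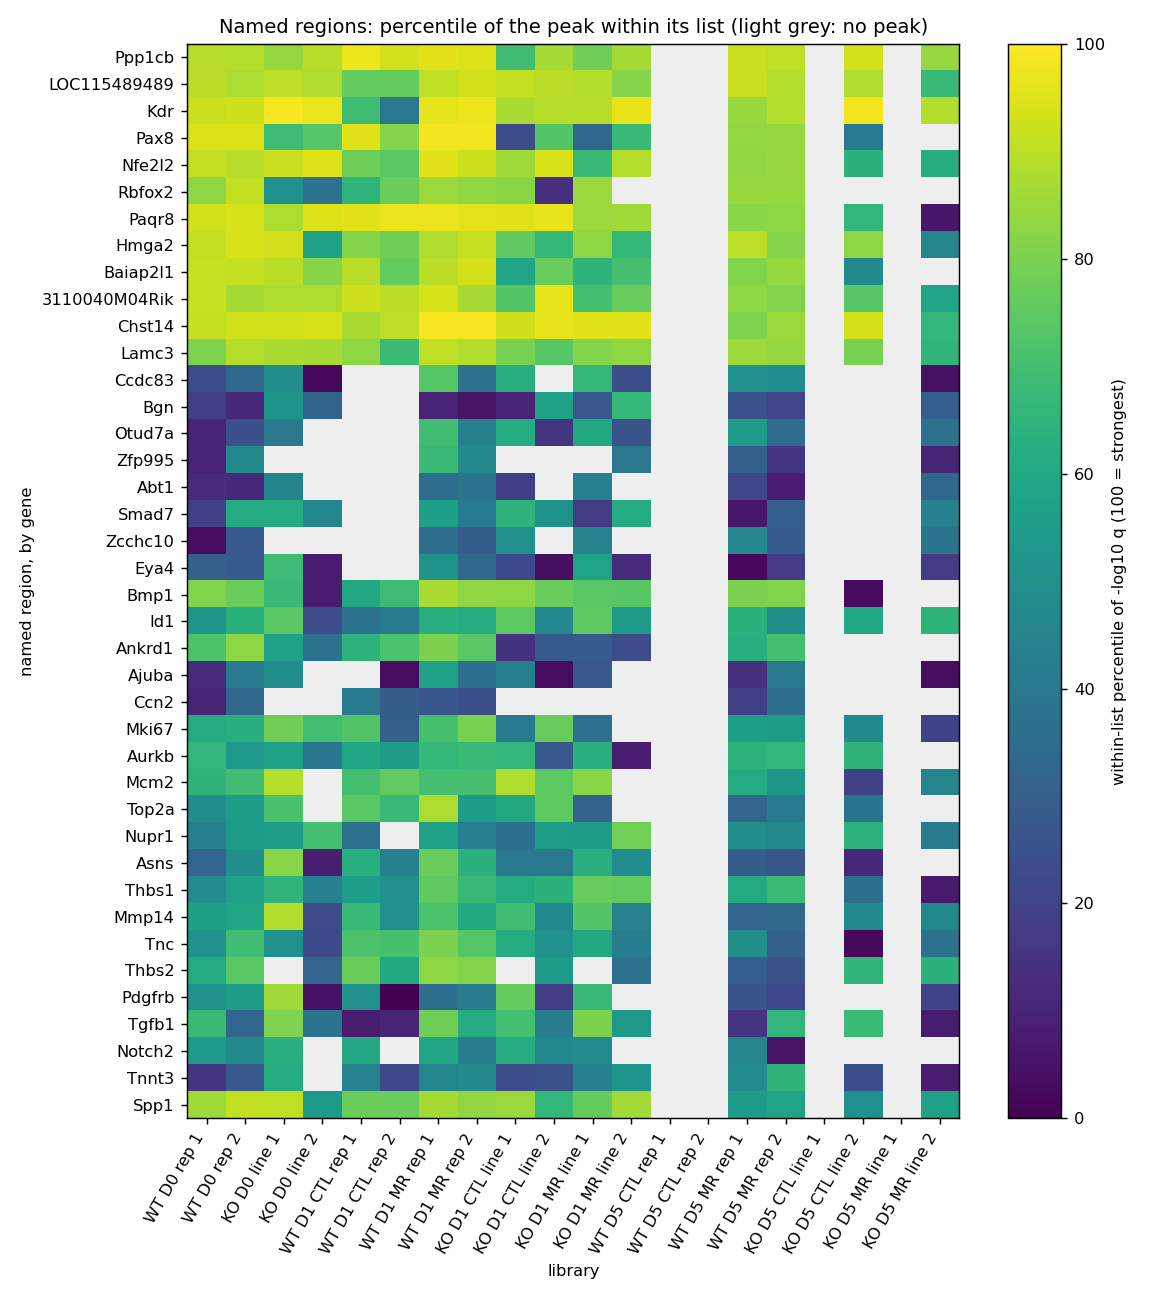
Within-list percentile of −log10 q (colour, 100 is the strongest peak of a list) of each named MR-retained region, by gene, in all 20 libraries, with light grey where no peak was called. The rule fixes the empty WT D5 CTL columns and the filled WT D0 and WT D5 MR columns, the 8 regions from Ccdc83 to Eya4 were selected on their empty WT D1 CTL columns, and the KO line 1 D5 columns are empty for every region shown.

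MR-retained regions had 4889 different nearest genes, of which 3330 had 1 region and 110 had 5 or more. The genes named next were chosen after their counts had been seen, and a gene with more WT D0 regions near it has more chances of a high count. Dlgap2 and Pakap had 11 each, and Gadd45g and Galnt2 had 10. All 11 regions of Dlgap2, a synaptic scaffold gene, lay inside the gene over 469 kb of chromosome 8, among 31 WT D0 regions of which 0 were kept in both media and 11 were closed in both. KO line 2 at D5 held 7 of the 11 in CTL and 3 in MR. Pakap differed, with 8 of 27 WT D0 regions kept in both media, and KO line 2 at D5 held 10 and 9 of its 11.

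Gadd45g, a growth arrest and DNA damage gene, had 10 of its 32 WT D0 regions in this class, all outside the gene, from 227 to 306465 bp away, and KO line 2 at D5 held 3 in CTL and 1 in MR. Myc, a transcription factor that drives proliferation, had 9 regions, from 1682 to 668188 bp away on chromosome 15, among 32 WT D0 regions of which 11 were kept in both media and 9 were closed in both. KO line 2 at D5 held 8 of the 9 in CTL and 6 in MR. Mrtfb, a coactivator of serum response factor, had 9 of 18, and Runx1, a transcription factor, had 8 of 44, of which 25 were kept in both media. Efcab1 had the highest share of these genes with 8 or more, 8 of 9 WT D0 regions, between 21488 and 283752 bp away. The nearest gene is a label of position here, and no link between a region and a gene's expression was measured.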

How the data were processed

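ATAC-seq libraries of C2C12 cells, 2 in each of 10 groups, were analysed from 1 deposited peak list per library. Each list holds, as values of the authors, a score, a fold enrichment (ratio) and −log10 p- and q-values per peak. The build is GRCm38, per the submitters' processing notes. The aligner, filters, read shift and peak caller are not given in the sources used here. Per the labels' protocols, the DNA was amplified with 10 PCR cycles.

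All 787806 peaks were merged at 1 bp overlap into 101352 regions. A call is an overlap of a region with a peak of that library by 1 bp. Libraries were grouped by title, and the number in a KO title was read as the line. Percentiles rank −log10 q within a list. Background coverage was solved from the commonest fold and −log10 p pair of each list under assumed Poisson formulas. Gene ends came from a RefSeq GRCm38.p6 table without strand, and promoters from its start windows. Named regions followed set rules: the strongest by lowest required percentile, those with given calls outside the rule, and up to 4 genes per gene list. The members, gene lists and rules were chosen with earlier results of these data known.

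Calls were tested with an exact permutation test within genotype and day (216 arrangements, two-sided, Benjamini-Hochberg adjustment). The test was also run on simulated data, with each region's calls dealt at random within genotype and day. That setting holds neither the pairing by line nor the unequal list lengths, so it cannot show how the test behaves on these lists. With 2 libraries against 2 the smallest p is 0.333. Where the labels name no separate cultures, p-values measure the spread between these libraries only. The KO libraries of D1 and of D5 are paired by line, and deviations correlated at 0.396 and 0.647 (WT D1 0.045). Alternatives were 50% coverage, a −log10 q of at least 2, the 20000 strongest peaks, other gene-end distances, other region bounds and leaving out replicates. Python 3.11.15, numpy 2.4.6, pandas 2.3.3 and scipy 1.17.1 were used.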

Additional observations from a re-analysis of the deposited data

Results flagged for a closer look

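In WT at D1 the percent of MR-retained regions called was higher in MR than in CTL by 6.96 percentage points. The difference ran from 2.41 to 11.5 over the pairings of 1 MR library with 1 CTL library, whatever their replicate numbers. In KO at D1 the percent called was lower in MR, by a difference of −8.6, with −5.69 in line 1 and −11.5 in line 2. Every pair moved one way in WT and the opposite way in KO, and the difference between the genotypes was not tested. Among the 20000 strongest peaks of each list the KO difference was 5.69, the same sign as the 8.25 of WT. The lists were longer in MR in WT and shorter in MR in KO, and the part of list length in the deposited values was not tested.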

How the results depend on the processing

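Under the alternatives run, the number of MR-retained regions was 6414 with 50% coverage (2331 of them among the 7543), 7066 with a −log10 q of at least 2 (6440 shared), 8168 with regions bounded by shared D0 bases, and 889 with the 20000 strongest peaks, and it was 10739 to 13660 when 1 WT replicate number was left out. The difference of MR minus CTL in the percent called turned sign in KO at D1, to 2.7 with the 20000 strongest peaks throughout and to 5.69 with the regions as reported. The cause was not tested. In WT at D1 it was 14.1 with the 20000 strongest peaks, and 7.47 to 11.3 over the left-out replicates. In KO line 2 at D5 it was −15.7 with 50% coverage, −12.6 with the 20000 strongest peaks and −1.9 with those peaks and the regions as reported, and −17.7 to −17.2 over the left-out WT replicates.

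With the 20000 strongest peaks and the regions as reported, 34.7% were called in KO D0, 31.4% in WT D1 CTL, 39.6% in WT D1 MR, 36.4% in KO line 2 D5 CTL and 34.5% in its MR. With the 20000 strongest peaks also deciding the rule, these were 75.4% in WT D1 CTL, 89.5% in WT D1 MR, 66.7% in KO line 2 D5 CTL and 54.1% in MR. A 50% coverage gave 55.6% in KO line 2 D5 CTL, and a −log10 q of at least 2 gave 53.1% in CTL and 33.3% in MR. Leaving out a WT replicate number gave 86.3% to 90.7% in WT D1 CTL, 97.5% to 98.2% in WT D1 MR, 51.6% to 55.5% in KO line 2 D5 CTL and 34.5% to 37.8% in MR. The gene-end share was 22.0% with 50% coverage, 14.1% with the 20000 strongest peaks, 12.7% at 500 bp, 20.7% at 2 kb and 16.4% to 17.7% over the left-out replicates.

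The region test called 0 regions in each alternative with testable regions, with 0 to 15 at an unadjusted exact permutation p under 0.05. No paired analysis was possible because, in the test by region with the replicate number as a block (64 arrangements), no region's calls in these lists allow a p of 0.05. Differences within replicate number and line are given as values in the report. No region was testable without KO line 1 or without KO line 2. Depth limits KO line 1 at D5 most, and each group has only 2 libraries.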
